A study of Mus musculus with 4 samples.

Results

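The chaperone genes described here were taken from the gene count table by name and biotype: protein-coding genes whose symbol begins with Hspa, Hspb, Hspd, Hspe, Hsph, Hsp90, Dnaja, Dnajb or Dnajc, together with Tcp1 and the Cct genes of the chaperonin. The rule took 82 of the 52636 genes in the table, of which 22027 were protein coding. By the main known place of the protein, 41 were assigned to the cytosol and nucleus, 13 to the endoplasmic reticulum (ER), 9 to the mitochondria and 8 to the chaperonin, and 11 to another or an unstated place. By name, 28 were Dnajc genes, 13 Dnajb, 13 Hspa, 10 Hspb, 4 Dnaja and 3 Hsp90 genes. Hspd1, Hspe1 and Hsph1 were the sole members of their name families. Cct6a, a chaperonin subunit gene, was listed in the table as a processed transcript and was therefore no member. A few members, such as Hspbap1 and Hspbp1, were taken by the name prefix and are not chaperones themselves.

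The study set out to compare T follicular helper (Tfh) cells, which help B cells to make antibody, with and without E4BP4, the transcription factor encoded by Nfil3. It comprised 4 bulk RNA-seq libraries. Of these, 2 were labelled E4BP4-cKO, for cells of mice with a conditional knockout, and 2 were labelled wild-type. All cells were naive CD4 T cells from the spleen of C57BL/6 mice, grown for 3 days in medium with 10% FBS, 10 ng/ml each of the cytokines IL-6 and IL-21, and neutralising antibodies, at 10 µg/ml for IFN-γ and for IL-4 and at 20 µg/ml for TGF-β. Which Cre was used, which part of Nfil3 was deleted, how old the mice were and whether replicate libraries stem from different mice or cultures is not recorded in the sources used here. The p-values therefore measure only the spread between these libraries, which may be technical.

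Heat shock proteins and their partners keep other proteins folded. HSP70 proteins (Hspa genes) bind and release unfolded stretches, J proteins (Dnaj genes) bring them their substrates and stimulate their ATPase, HSP110 proteins such as Hsph1 exchange their nucleotide, and HSP90 proteins finish the folding of kinases and receptors. The ER and the mitochondria each hold their own versions, and the barrel-shaped chaperonin of Tcp1 and the Cct proteins folds actin and tubulin. Heat shock factor 1 switches on many of the cytosolic and mitochondrial genes through heat shock elements, and the unfolded protein response switches on many of the ER genes through ER stress elements. T cells raise the synthesis of many chaperones when they are activated and start to grow.

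The libraries labelled E4BP4-cKO held 26579592 and 19057077 counts in total, and the wild-type-labelled ones 21543872 and 24447091. Nfil3 itself went against the labels, with 4649 and 3965 counts under the E4BP4-cKO label and 290 and 377 under the wild-type label (log2 fold change 3.81, SE 0.15, edgeR adjusted p = 0.00396). Directions below are therefore those of the labels and are not read as an effect of losing E4BP4. Markers of T cells were present in every library at a summed level of 2677 to 3272 CPM (counts relative to library size, scaled by TMM), and 0 of the 7 were called between the groups. Summed markers of mast cells and basophils stood at 1043 and 737 CPM under the E4BP4-cKO label and 294 and 64.2 CPM under the wild-type label, with 3 of 5 called higher. Myeloid markers stood at 243 and 173 against 35.0 and 14.8 CPM, with 5 of 6 called higher, and B cell markers at 58.0 and 29.4 against 273 and 264 CPM, with 1 of 5 called lower. None of these markers was at 0 counts in every library. Their part in the chaperone results was not tested, and in bulk RNA fewer cells of a type and less RNA per cell cannot be told apart.

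On the per-length scale (RPKM, CPM divided by the length in kilobases in the table), Hsp90ab1, the constitutive cytosolic HSP90, was first in the wild-type-labelled libraries at 1079 ± 51.2 RPKM (SD, n = 2). Hspa8, the constitutive cytosolic HSP70, followed at 536 ± 13.1, then the second cytosolic HSP90 Hsp90aa1 at 227 ± 15.2, the mitochondrial chaperonin Hspd1 at 174 ± 12.8 and the ER HSP70 Hspa5 at 147 ± 10.1. In all, 38 of the 82 members reached 10 RPKM there and 19 lay under 1 RPKM. The stress-inducible HSP70 genes Hspa1a and Hspa1b, at 1.23 and 3.20 RPKM, were far below Hspa8, and Hspb1, the small heat shock protein HSP27 in human, was at 0.181 RPKM. The muscle-expressed Hspb3 had no count in any library, where 3 counts, the limit that a count of 0 allows, correspond to 0.115 to 0.164 CPM, and 8 further members had 1 to 20 counts over the 4 libraries. Hsp90ab1 and Hspa8 together took 38.8% of all counts of members.

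As a summed share of all counts, with no scaling, the 82 members took 1.22% and 1.16% under the E4BP4-cKO label and 1.47% and 1.43% under the wild-type label. The cytosolic and nuclear members took 0.710% and 0.672% against 0.893% and 0.864%. The mitochondrial members took 0.0891% and 0.0825% against 0.123% and 0.118%, and the chaperonin subunits 0.198% and 0.202% against 0.241% and 0.235%. In these 3 compartments both E4BP4-cKO-labelled libraries were below both wild-type-labelled ones. The ER members did not separate in this way, with 0.189% and 0.170% against 0.175% and 0.173%. With 2 libraries against 2, the smallest exact permutation p is 0.333, so no test of these sums was made.

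By edgeR, few chaperone genes differed between the labels beyond the spread of the libraries. The ER J protein Dnajc1 rose, and the cytosolic HSP110 Hsph1, the mitochondrial HSP60 Hspd1, the histone-handling J protein Dnajc9 and the GTPase-linked J protein Dnajc27 fell under the E4BP4-cKO label. Across the transcriptome, edgeR's quasi-likelihood test with Benjamini-Hochberg adjustment called 14.2% of the 15503 genes tested at an adjusted p under 0.05, 7.68% higher and 6.53% lower under the E4BP4-cKO label. Of the 82 members, 70 had enough counts to be tested, and 12 did not. Of those tested, 1 was called higher and 4 lower, a share of 7.14%, below that of all genes. Of the same 70, the groups did not overlap in 19 that were higher and 25 that were lower under the E4BP4-cKO label. Among all genes these shares were 34.6% and 33.6%. At an unadjusted p under 0.05, a looser cutoff used below, 8 of the 70 were higher and 14 lower, beside 18.6% and 17.1% of all genes. The median log2 fold change of the members tested was -0.033, beside 0.019 over all genes. DESeq2 called 23.1% of the 15202 genes it gave an adjusted p for, 12.1% higher and 11.0% lower. Of the 70 members in its fit it called more than edgeR did. It called 5 higher (Dnajb14, Dnajb2, Dnajc1, Dnajc6 and Hspa13) and 10 lower (Cct3, Dnajb1, Dnajc11, Dnajc27, Dnajc9, Hsp90aa1, Hspa14, Hspbp1, Hspd1 and Hsph1). With total library size in place of TMM factors, edgeR called 1 member higher and 9 lower, and 1033 genes higher and 1636 lower in all, against 1191 and 1013 with TMM. Without E4BP4-cKO replicate 2, edgeR called 0 members in either direction, in a fit that called 153 genes higher and 43 lower over the transcriptome. Without wild-type replicate 1 it called only Dnajc6 among the members, and 451 genes higher and 119 lower in all.

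**Figure D1:**
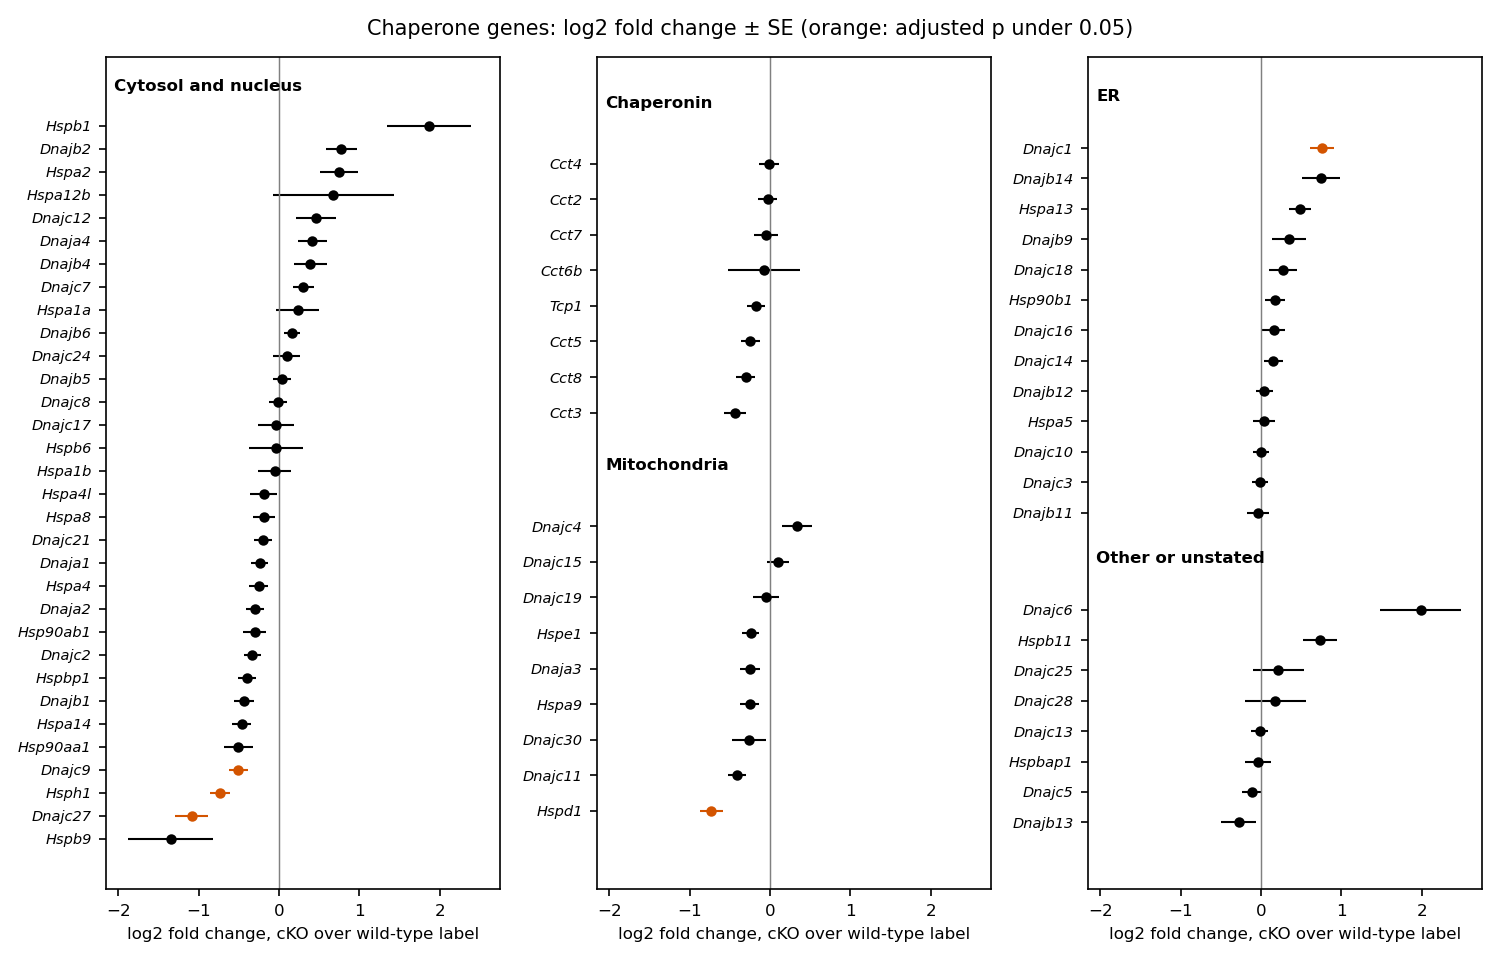
Log2 fold change of E4BP4-cKO over wild-type labels for the 70 members tested, by compartment, as points with bars of ±1 SE. The SE was derived from the F statistic of the edgeR fit on 2 libraries against 2. Orange points were called at an adjusted p under 0.05. The 8 chaperonin subunits have values below 0 (Cct4 above 0 with upper-quartile factors), while the ER members run from -0.036 to 0.76.

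In the cytosol and nucleus, 3 of the 32 members tested fell, Hsph1, Dnajc9 and Dnajc27, and none rose. These are 9.4% of those tested, beside 14.2% of all genes. At an unadjusted p under 0.05 edgeR gave 3 higher and 10 lower, beside 18.6% and 17.1% of all genes. DESeq2 called 1 higher, Dnajb2, and 7 lower, beside 12.1% and 11.0%. There was no overlap of the groups in 15 members that were lower and 9 that were higher, beside 33.6% and 34.6% of all genes. The median log2 fold change was -0.12. The most abundant members, Hsp90ab1, Hspa8 and Hsp90aa1, were each lower in both libraries labelled E4BP4-cKO and did not pass the test.

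Hsph1, the HSP110 that recharges cytosolic HSP70, had the lowest adjusted p of this compartment. Gene coordinates are those of the table, on mm10. Hsph1 (ENSMUSG00000029657; chromosome 5, 149614287 to 149636376, minus strand) measured 110.0 and 92.9 CPM with the E4BP4-cKO label and 173 and 164 CPM with the wild-type label. The 2 groups did not overlap. The level fell by 39.8%, a log2 fold change of -0.73 (SE 0.12, edgeR adjusted p = 0.0301). Leaving out E4BP4-cKO replicate 2 gave an adjusted p of 0.0863, and leaving out wild-type replicate 1 gave 0.0933. Its close relative Hspa4, the other abundant HSP110 of the cytosol, measured 225 and 234 against 286 and 261 CPM, with groups apart but a smaller difference that was not called (log2 fold change -0.25, adjusted p = 0.175). Per length, the ratio of Hsph1 to Hspa4 was 0.372 and 0.302 under the E4BP4-cKO label and 0.461 and 0.478 under the wild-type label. The ratios between members were chosen after their values were seen and are given with no test.

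The promoter of Hsph1 is shown because Hsph1 was 1 of 4 members with a heat shock element in a RefSeq promoter window. The windows run from 250 bases before to 50 bases after each start site on GRCm38.p6, the build called mm10. The element searched was 3 inverted GAA units with 2 free bases between them, GAANNTTCNNGAA, and its reverse complement TTCNNGAANNTTC. It was found in 198 of 32851 windows, a share of 0.603%, and in 179 of 27025 genes. Of the 82 members, 67 had a window, and the 4 with a match were Hsph1, Dnajb6, Hspd1 and Hspe1. Members with no window in the table were Cct4, Dnajc2, Dnajc5, Dnajc5b, Dnajc11, Dnajc12, Dnajc18, Dnajc22, Dnajc30, Hsp90aa1, Hsp90ab1, Hspa8, Hspa9, Hspa13 and Hspb2. In the window of Hsph1 at chr5:149636266-149636565, on the minus strand, the capitals mark the element, whose first base lies 15 bases after the start site.
Hsph1: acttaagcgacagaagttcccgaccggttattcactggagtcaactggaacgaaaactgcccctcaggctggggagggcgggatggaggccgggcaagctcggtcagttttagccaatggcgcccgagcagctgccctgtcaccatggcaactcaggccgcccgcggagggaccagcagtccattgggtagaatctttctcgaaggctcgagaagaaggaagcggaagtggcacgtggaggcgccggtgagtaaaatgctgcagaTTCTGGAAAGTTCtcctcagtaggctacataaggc
The same search found the element in Dnajb6, a J protein that holds aggregation-prone proteins soluble, here shown with 8 bases on each side at chr5:29735844-29735872 on the plus strand.
Dnajb6: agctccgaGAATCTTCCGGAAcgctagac
Dnajb6 was not called. It measured 142 and 148 CPM against 125 and 133 CPM (log2 fold change 0.17, SE 0.10, adjusted p = 0.295), and 35.8% of its 50-base stretches also occur in other genes, so its counts are uncertain. A match of these letters is a description of the window and does not show that the factor binds there. A window with no match does not show that the gene lacks an element, since only these letters and these stretches were searched.

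Dnajc9, a J protein that also chaperones histones, measured 85.3 and 96.5 CPM under the E4BP4-cKO label and 136 and 122 CPM under the wild-type label. The groups did not overlap. It fell by 29.7% (log2 fold change -0.51, SE 0.12, adjusted p = 0.0484), close to the threshold. The call was lost whichever library was left out, with an adjusted p of 0.0725 to 0.194, and with replicate number as a block, at 0.0637. Dnajc27, a protein that joins a Rab-like GTPase to a J domain, was much lower in level, at 8.57 and 7.97 against 19.7 and 15.5 CPM. It fell by 52.9% (log2 fold change -1.09, SE 0.20, adjusted p = 0.0347). That call was lost when either E4BP4-cKO library was left out (0.0568 and 0.107) and without wild-type replicate 1 (0.146).

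Neither the core HSP90 genes nor Hspa8 passed the test. Hsp90ab1 measured 2763 and 2498 CPM under the E4BP4-cKO label and 3345 and 3128 CPM under the wild-type label (log2 fold change -0.30, SE 0.14, adjusted p = 0.199). Hsp90aa1, the more inducible of the pair, measured 718 and 542 against 936 and 851 CPM (-0.50, SE 0.18, adjusted p = 0.109), and was called lower by DESeq2, with no filter on low counts and without E4BP4-cKO replicate 1. Hspa8 measured 1979 and 2075 against 2347 and 2267 CPM (-0.19, SE 0.13, adjusted p = 0.362). In all 3 the groups were apart. Of the 50-base stretches of Hsp90aa1 and Hspa8, 58.5% and 51.4% also occur in other genes, mostly unnamed Gm loci, against 4.49% for Hsp90ab1, and the sources used here do not say how such reads were counted.

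The cytosolic J proteins went in both directions and, apart from Dnajc9 and Dnajc27, missed the threshold. By name family, 3 of 4 Dnaja genes tested were below 0 and 7 of 10 Dnajb genes above 0, whatever their compartment, with medians of -0.24 and 0.10. Dnajb1, the HSP40 that is induced with HSP70, measured 90.9 and 86.9 against 129.9 and 111 CPM (-0.43 on the log2 scale, adjusted p = 0.0654). Dnaja1 measured 206 and 199 against 239 and 239 CPM (-0.24, adjusted p = 0.163), and Dnaja2 148 and 149 against 192 and 173 CPM (-0.29, adjusted p = 0.121). Hspa14 and Dnajc2, which form an HSP70 and J protein pair on the ribosome in mammals, measured 74.0 and 79.1 against 114 and 97.2 CPM (-0.46, adjusted p = 0.0582) and 85.1 and 85.8 against 113 and 102 CPM (-0.33, adjusted p = 0.0877). Hspbp1, which removes nucleotide from HSP70, measured 53.0 and 51.8 against 73.1 and 64.9 CPM (-0.40, adjusted p = 0.0664). With total library size in place of TMM factors, edgeR called Dnajb1, Dnajc2, Hspa14 and Hspbp1 lower as well. Above 0 with groups apart were Dnaja4 at 0.41 (adjusted p = 0.168), Dnajb4 at 0.39 (adjusted p = 0.222), Dnajc12 at 0.46 (adjusted p = 0.243) and Dnajc7 at 0.30 (adjusted p = 0.161), none of them called. Of the exon bases of Dnaja4, 44.1% lie antisense to Wdr61, and no strand setting is given for the counts.

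Hspa1a, Hspa1b and Hspb1, inducible genes of the classic heat shock response, were not called. Hspa1a measured 3.96 and 4.64 CPM under the E4BP4-cKO label and 3.38 and 3.92 CPM under the wild-type label (0.23, adjusted p = 0.578), and Hspa1b 8.42 and 8.90 against 8.32 and 9.61 CPM (-0.051, adjusted p = 0.882). The groups overlapped for Hspa1b and were barely apart for Hspa1a. The pair are near-identical, with 60.3% and 62.3% of their 50-base stretches shared, so the split of reads between them is uncertain. Hspb1 had 17 and 14 counts under the E4BP4-cKO label and 3 and 6 under the wild-type label, too few for more than a value (1.87, SE 0.52, adjusted p = 0.0675). With no filter on low counts it was called higher. Of its 50-base stretches, 51.6% also occur in another gene, Hsp25-ps1, so its counts are uncertain too. Dnajb2, a J protein that sorts HSP70 clients toward ubiquitin, was at 35.8 and 47.3 against 21.8 and 26.8 CPM (0.77, SE 0.19, adjusted p = 0.0540), and was called higher by DESeq2, with the replicate block and without E4BP4-cKO replicate 1. The HSP70 gene Hspa2 measured 15.9 and 20.4 against 12.5 and 9.14 CPM, with groups apart (0.75, SE 0.24, adjusted p = 0.0886). It was called higher with no filter on low counts. Hspb9, a small heat shock protein at few counts, had the lowest log2 fold change of the compartment, -1.35 (SE 0.53, adjusted p = 0.137).

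The partners of HSP70 and HSP90 were examined as a list of 24 co-chaperones and heat shock factors, all tested. Of these, 2 fell and none rose, a share of 8.33% beside 14.2% of all genes. At an unadjusted p under 0.05, 7 were lower and 0 higher, beside 17.1% and 18.6% of all genes. DESeq2 called 6 lower and 0 higher, beside 11.0% and 12.1%. The groups were apart in 14 that were lower and 2 that were higher, beside 33.6% and 34.6% of all genes. The median log2 fold change was -0.18. The 2 that fell were both immunophilins of the HSP90 cycle. Fkbp4 measured 137 and 138 CPM under the E4BP4-cKO label and 219.5 and 189 CPM under the wild-type label (-0.57, SE 0.12, adjusted p = 0.0402). Ppid measured 81.4 and 81.3 against 119 and 109.8 CPM (-0.49, SE 0.10, adjusted p = 0.0386). The call of Ppid was lost whichever library was left out, and that of Fkbp4 when any library but wild-type replicate 2 was, with an adjusted p up to 0.157 and 0.168. The 3 genes that follow were named after their values were seen. Ahsa1, which speeds the HSP90 ATPase, and Stip1, which hands clients from HSP70 to HSP90, stood just outside the threshold at -0.47 and -0.45 on the log2 scale (adjusted p = 0.0533 and 0.0572). Hsf1, the main heat shock factor, measured 39.9 and 46.7 against 58.3 and 51.4 CPM (-0.34, adjusted p = 0.136).

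In the mitochondria, Hspd1 was the 1 member of 9 that fell, and none rose, a share of 11.1% beside 14.2% of all genes. At an unadjusted p under 0.05 edgeR gave 0 higher and 2 lower, beside 18.6% and 17.1% of all genes. DESeq2 called 0 higher and 2 lower, beside 12.1% and 11.0%. Groups were apart in 6 members that were lower and 1 that was higher, beside 33.6% and 34.6% of all genes. The median log2 fold change was -0.24, the lowest of the 5 compartments, and the difference between compartments was not tested.

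Hspd1 encodes HSP60, the barrel that folds imported proteins in the matrix. Hspd1 (ENSMUSG00000025980; chromosome 1, 55077835 to 55088243, minus strand) measured 298 and 258 CPM with the E4BP4-cKO label and 484 and 436 CPM with the wild-type label. Both E4BP4-cKO-labelled libraries were low and both wild-type-labelled ones high. It fell by 39.6% (log2 fold change -0.73, SE 0.14, edgeR adjusted p = 0.0352). Per length it ranked 4 among the members under the wild-type label and 8 under the E4BP4-cKO label, at 105 ± 10.7 RPKM. Leaving out E4BP4-cKO replicate 2 gave an adjusted p of 0.0993, leaving out wild-type replicate 1 gave 0.131 and leaving out wild-type replicate 2 gave 0.0556. Of its 50-base stretches 44.8% also occur elsewhere, mainly in pseudogenes such as Hspd1-ps3, so its counts are uncertain to that extent.

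Hspe1 encodes HSP10, the lid that closes the HSP60 barrel, and lies head to head with Hspd1. Hspe1 (ENSMUSG00000073676; chromosome 1, 55088132 to 55091307, plus strand) measured 156 and 159.5 CPM under the E4BP4-cKO label and 195 and 178 CPM under the wild-type label. The groups did not overlap, and the difference was not called (log2 fold change -0.24, SE 0.11, adjusted p = 0.170). Per length, the ratio of Hspd1 to Hspe1 was 1.06 and 0.902 under the E4BP4-cKO label and 1.39 and 1.36 under the wild-type label, so the barrel was low against its lid in both E4BP4-cKO-labelled libraries. The difference between the changes of Hspd1 and Hspe1 was not tested. The gene models overlap by 112 bases on opposite strands, chr1:55088132-55088243, which is 4.24% of the exon bases of Hspd1 and 7.60% of those of Hspe1, and the sources used here give no strand setting for the counts.

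The shared promoter is shown because both genes start from it and both windows hold the heat shock element. In the window of Hspe1 at chr1:55087898-55088197, on the plus strand, the 2 overlapping matches join into 18 bases at chr1:55088059-55088076, marked in capitals.
Hspe1: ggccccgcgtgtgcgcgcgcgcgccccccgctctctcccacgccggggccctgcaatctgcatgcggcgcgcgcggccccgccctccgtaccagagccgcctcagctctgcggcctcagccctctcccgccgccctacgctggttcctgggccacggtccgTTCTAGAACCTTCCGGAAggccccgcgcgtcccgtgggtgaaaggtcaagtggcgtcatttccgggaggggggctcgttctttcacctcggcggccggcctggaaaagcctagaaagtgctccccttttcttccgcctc
Read from the minus strand, toward Hspd1, the same place gives 1 of the matches at chr1:55088056-55088084, with 8 bases on each side.
Hspd1: gcggggccTTCCGGAAGGTTCtagaacgg
The first bases of the matches lie at -89 and -84 from the start site of Hspe1 and at -144 and -139 from a start site of Hspd1. A second RefSeq start site of Hspd1 has its window at chr1:55088194-55088493, and that window holds no match. Of the 24 co-chaperones and heat shock factors, 20 had a window. Chordc1, an HSP90 partner, was the sole gene of these with the element, and it measured 71.4 and 67.9 against 94.8 and 86.2 CPM (-0.38, adjusted p = 0.0646).

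**Figure D2:**
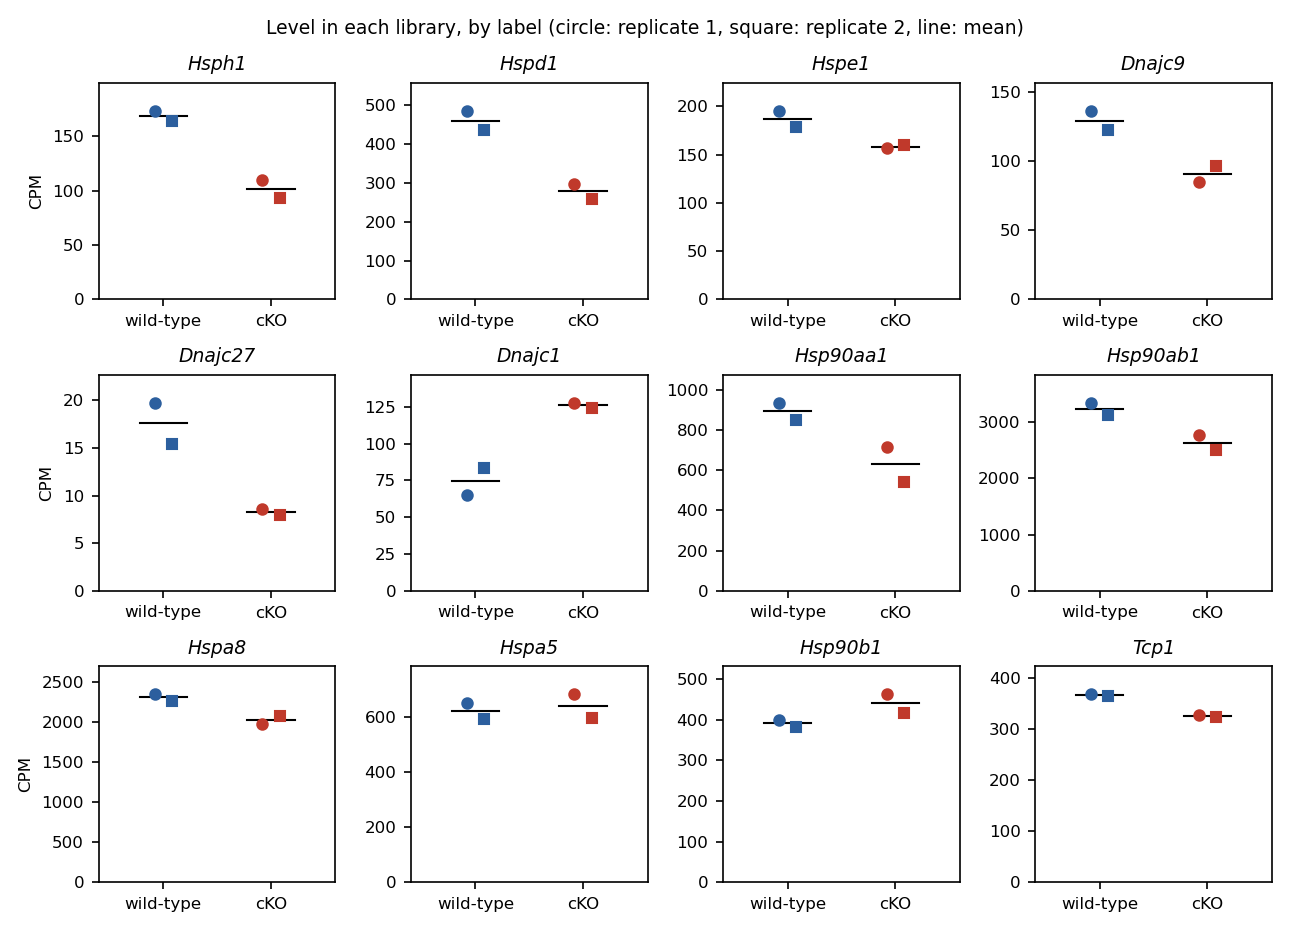
Level of 12 members in each library in CPM, on axes that start at 0, by label (blue, wild-type; red, E4BP4-cKO), with circles for replicate 1, squares for replicate 2 and a line at the mean of 2 libraries. Hsph1 and Hspd1 sit lower in both E4BP4-cKO-labelled libraries, Dnajc1 sits higher, and the groups overlap for Hspa5.

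The other mitochondrial members had smaller differences, which edgeR did not call. Hspa9, the mitochondrial HSP70 that pulls proteins through the import channel, measured 270.1 and 251 against 319 and 302 CPM (-0.25, adjusted p = 0.180). Its J partner Dnaja3 measured 41.4 and 48.0 against 54.7 and 50.9 CPM (-0.24, adjusted p = 0.222). Dnajc11, which associates with the complex that shapes the cristae, measured 67.4 and 58.6 against 83.7 and 84.1 CPM (-0.41, SE 0.11, adjusted p = 0.0629), and was called lower by DESeq2 and with total library size. With groups apart, Dnajc30 stood at -0.26 and Dnajc4 at 0.34 on the log2 scale. Of the exon bases of Dnajc30, 26.2% lie antisense to Bud23. The groups overlapped for Dnajc19 at -0.050 and Dnajc15 at 0.098. Among 22 genes of mitochondrial import and quality control, 1 fell and none rose, with a median of -0.066. The 1 called is 4.55% of the list, beside 14.2% of all genes. At an unadjusted p under 0.05, 1 was higher and 7 lower, beside 18.6% and 17.1% of all genes. DESeq2 called 1 higher and 4 lower, beside 12.1% and 11.0%. There was no overlap of the groups in 10 that were lower and 4 that were higher, beside 33.6% and 34.6% of all genes. The gene that fell was Trap1, the mitochondrial HSP90, which measured 68.0 and 66.1 against 111 and 94.7 CPM (-0.61, SE 0.12, adjusted p = 0.0347). Its call was lost when either E4BP4-cKO library was left out (0.0581 and 0.106) and without wild-type replicate 1 (0.121).

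None of the 8 chaperonin subunit genes was called in either direction by edgeR, and 2 were lower at an unadjusted p under 0.05, beside 17.1% of all genes. DESeq2 called Cct3 lower. All 8 log2 fold changes were below 0, except that Cct4 was above 0 with upper-quartile factors, with a median of -0.12. The groups did not overlap in 4 of them, beside 33.6% of all genes that were lower. The 7 abundant subunits, which stand in equal number in the assembled ring, had log2 fold changes from -0.43 to -0.011. Cct3 was furthest from 0, at 260.3 and 218 CPM under the E4BP4-cKO label and 336 and 310.4 CPM under the wild-type label (-0.43, SE 0.14, adjusted p = 0.0877). Cct8 measured 263 and 243 against 321 and 304 CPM (-0.30, adjusted p = 0.129), Cct5 286 and 294 against 352 and 334 CPM (-0.24, adjusted p = 0.189) and Tcp1 328 and 324 against 368 and 364 CPM (-0.17, adjusted p = 0.335). In these 4 both E4BP4-cKO-labelled libraries were below both wild-type-labelled ones. The groups overlapped for Cct2 at 346 and 373 against 369.6 and 363 CPM (-0.027, adjusted p = 0.893), for Cct4 at 224 and 261 against 251 and 238 CPM (-0.011, adjusted p = 0.961) and for Cct7 at 313 and 385 against 380.1 and 341 CPM (-0.046, adjusted p = 0.857). The sign of Cct2, Cct4 and Cct7 turned when E4BP4-cKO replicate 1 was left out. Cct6b, the testis form of the zeta subunit, was at 0.461 and 0.546 against 0.457 and 0.589 CPM. The ubiquitous zeta subunit gene Cct6a, no member by its biotype, measured 183 and 157 against 219.9 and 217 CPM (-0.36, adjusted p = 0.0984).

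Prefoldin hands newly made actin and tubulin to the chaperonin. Of 11 genes for its subunits and for chaperonin helpers, 2 fell and none rose, with a median of -0.11. The 2 called are 18.2% of the list, beside 14.2% of all genes. At an unadjusted p under 0.05, 1 was higher and 4 lower, beside 18.6% and 17.1% of all genes. DESeq2 called 1 higher and 3 lower, beside 12.1% and 11.0%. Both genes that fell belong to a prefoldin-like complex. Pdrg1 measured 58.5 and 48.1 against 80.4 and 76.7 CPM (-0.56, SE 0.13, adjusted p = 0.0475), and Uri1 82.4 and 83.8 against 111 and 108 CPM (-0.40, SE 0.09, adjusted p = 0.0494). The call of Uri1 was lost with upper-quartile factors (0.0515), with limma-voom (0.0541), with the replicate block (0.0619) and whichever library was left out, up to 0.197. That of Pdrg1 was lost without E4BP4-cKO replicate 2 (0.135) and when either wild-type library was left out (0.168 and 0.0926).

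In the ER, 1 of 13 members rose, Dnajc1, and none fell, a share of 7.69% beside 14.2% of all genes. At an unadjusted p under 0.05 edgeR gave 3 higher and 0 lower, a share near that of all genes in the higher direction. DESeq2 called 3 higher and 0 lower, beside 12.1% and 11.0% of all genes. Groups were apart in 7 members, each higher under the E4BP4-cKO label, and overlapped in the other 6. Of all genes, 34.6% were higher with groups apart. The median log2 fold change was 0.16. The abundant folding factors of the ER lumen, Hspa5, Hsp90b1, Dnajb11 and Dnajc3, lay within 0.17 of 0 on the log2 scale.

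Dnajc1 is a J protein of the ER membrane that works with Hspa5 and also contacts the ribosome. Dnajc1 (ENSMUSG00000026740; chromosome 2, 18195654 to 18392830, minus strand) measured 128 and 124 CPM with the E4BP4-cKO label and 64.9 and 83.7 CPM with the wild-type label. The groups did not overlap. The log2 fold change was 0.76 (SE 0.15, edgeR adjusted p = 0.0355), a rise of 69.3%. Leaving out E4BP4-cKO replicate 1 gave an adjusted p of 0.0753, leaving out E4BP4-cKO replicate 2 gave 0.106 and leaving out wild-type replicate 1 gave 0.102. Of its exon bases, 6.43% lie antisense to Mllt10.

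Hspa5, the ER HSP70 known as BiP, measured 681 and 595 CPM under the E4BP4-cKO label and 650.2 and 589.9 CPM under the wild-type label. The groups overlapped (log2 fold change 0.041, SE 0.14, adjusted p = 0.861), and the sign turned with total library size. Hsp90b1, the ER HSP90 known as GRP94, measured 463 and 417 against 400.3 and 382 CPM, with groups apart and no call (0.17, SE 0.13, adjusted p = 0.376). Dnajb11, a soluble J protein of the lumen, measured 129 and 109 against 132 and 112 CPM (-0.036, adjusted p = 0.879). Dnajc3, which also inhibits the kinase that stops translation in ER stress, measured 102 and 97.6 against 104 and 97.1 CPM (-0.0069, adjusted p = 0.969). The groups overlapped for both, and the sign of Dnajc3 turned with upper-quartile factors. Dnajb9, an ER stress gene that represses the sensor Ern1, measured 16.1 and 13.2 against 10.1 and 12.8 CPM (0.35, adjusted p = 0.292). Hspa13, a microsomal HSP70, measured 31.7 and 35.3 against 24.6 and 23.3 CPM (0.48, SE 0.14, adjusted p = 0.0692), and Dnajb14, a J protein of the ER membrane, 19.0 and 21.7 against 9.74 and 14.4 CPM (0.75, SE 0.24, adjusted p = 0.0886). Both were called higher by DESeq2. The 7 ER members with groups apart were Dnajc1, Dnajb14, Hspa13, Dnajb9, Dnajc18, Hsp90b1 and Dnajc14.

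The ER stress element is shown for the ER chaperones that hold it. The letters searched were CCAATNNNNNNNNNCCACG and the reverse complement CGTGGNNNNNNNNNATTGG. They were found in 39 of 32851 windows, a share of 0.119%, and in 37 of 27025 genes. Of the 11 ER chaperones with a window, 3 held it, Hspa5, Hsp90b1 and Dnajc3, and no other member with a window did. Each is shown in the direction of the gene with 8 bases on each side, and the capitals mark the element with its free bases. The one of Hspa5 lies at chr2:34772017-34772051 on the plus strand, those of Hsp90b1 at chr10:86705630-86705664 and chr10:86705525-86705559 on the minus strand, and the one of Dnajc3 at chr14:118937819-118937853 on the plus strand.
Hspa5: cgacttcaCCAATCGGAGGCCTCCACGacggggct
Hsp90b1: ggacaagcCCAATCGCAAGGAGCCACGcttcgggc
Hsp90b1: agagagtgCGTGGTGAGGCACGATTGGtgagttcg
Dnajc3: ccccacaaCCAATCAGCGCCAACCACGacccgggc
Hsp90b1 holds the element in both directions, and Hspa5 and Dnajc3 in the direction of the gene. Dnajc1, the member that rose, had a window with no match.

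Of 30 tested genes for ER folding enzymes and the unfolded protein response, 4 rose and 1 fell. The 5 called are 16.7% of the list, near the share of all genes given above. The list had a median of 0.12. There was no overlap of the groups in 13 that were higher and 4 that were lower, beside 34.6% and 33.6% of all genes. Ern1, the sensor IRE1 that splices the message of Xbp1, measured 45.5 and 43.9 CPM under the E4BP4-cKO label and 20.3 and 22.4 CPM under the wild-type label (1.06, SE 0.13, adjusted p = 0.0213). Eif2ak3, the sensor kinase PERK, measured 139 and 118 against 58.2 and 74.9 CPM (0.95, SE 0.16, adjusted p = 0.0302). Atf4, the transcription factor translated when PERK is active, measured 290.0 and 308 against 185 and 198 CPM (0.64, SE 0.11, adjusted p = 0.0313). Ero1l, the oxidase that drives disulphide formation, measured 343 and 237 against 126 and 121 CPM (1.23, SE 0.19, adjusted p = 0.0287). In all 4 both E4BP4-cKO-labelled libraries were above both wild-type-labelled ones. The summed mast cell and basophil markers and the summed myeloid markers were also higher in those libraries, and their part in these rises was not tested.

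The gene that fell was Derl3, a part of the channel that retrieves misfolded proteins from the ER, at 0.692 and 0.273 CPM under the E4BP4-cKO label and 3.15 and 4.59 CPM under the wild-type label (-2.94, SE 0.51, adjusted p = 0.0306). Derl3 fell together with the summed B cell markers given above, and the part of B cells in it was not tested. Without E4BP4-cKO replicate 2, the calls of Ern1 (0.0661), Eif2ak3 (0.0791), Atf4 (0.0918) and Derl3 (0.0846) were lost. Without wild-type replicate 1, those of Ero1l (0.0755), Eif2ak3 (0.0811), Atf4 (0.140) and Derl3 (0.0575) were lost. Without wild-type replicate 2, those of Atf4 (0.0632) and Derl3 (0.0587) were lost, and without E4BP4-cKO replicate 1 that of Eif2ak3 (0.0606).

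Further genes of the response were named after their values were seen. Xbp1, the factor made from the message that IRE1 splices, measured 188 and 263 against 141 and 136 CPM (0.70, adjusted p = 0.0568), with groups apart and no call. Ddit3, the factor CHOP, stood at 0.61 (adjusted p = 0.0728) and Atf6, the third sensor, at -0.12 (adjusted p = 0.459). The folding enzymes and lumenal chaperones of the list, other than Ero1l, were not called and ran from -1.01 for Pdia5 (adjusted p = 0.106) to 0.40 for Sil1 (adjusted p = 0.243). Among those in between were Sdf2l1 at -0.35, Pdia6 at -0.18, Calr at -0.014, Hyou1 at 0.018, P4hb at 0.20 and Ppib at 0.32 on the log2 scale. Of the disposal genes other than Derl3, Edem1 stood at 0.50 (edgeR adjusted p = 0.0608), with groups apart. Herpud1, Derl1, Derl2 and Sel1l stood at 0.16, 0.16, 0.15 and 0.11, also with groups apart. Syvn1 stood at -0.094, with groups that overlapped, and edgeR called none of these. The element was found in the windows of 6 of the 24 genes of this list that had one, Calr, Canx, Creld2, Derl3, Pdia6 and Syvn1, and of these only Derl3 was called.

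**Figure D3:**
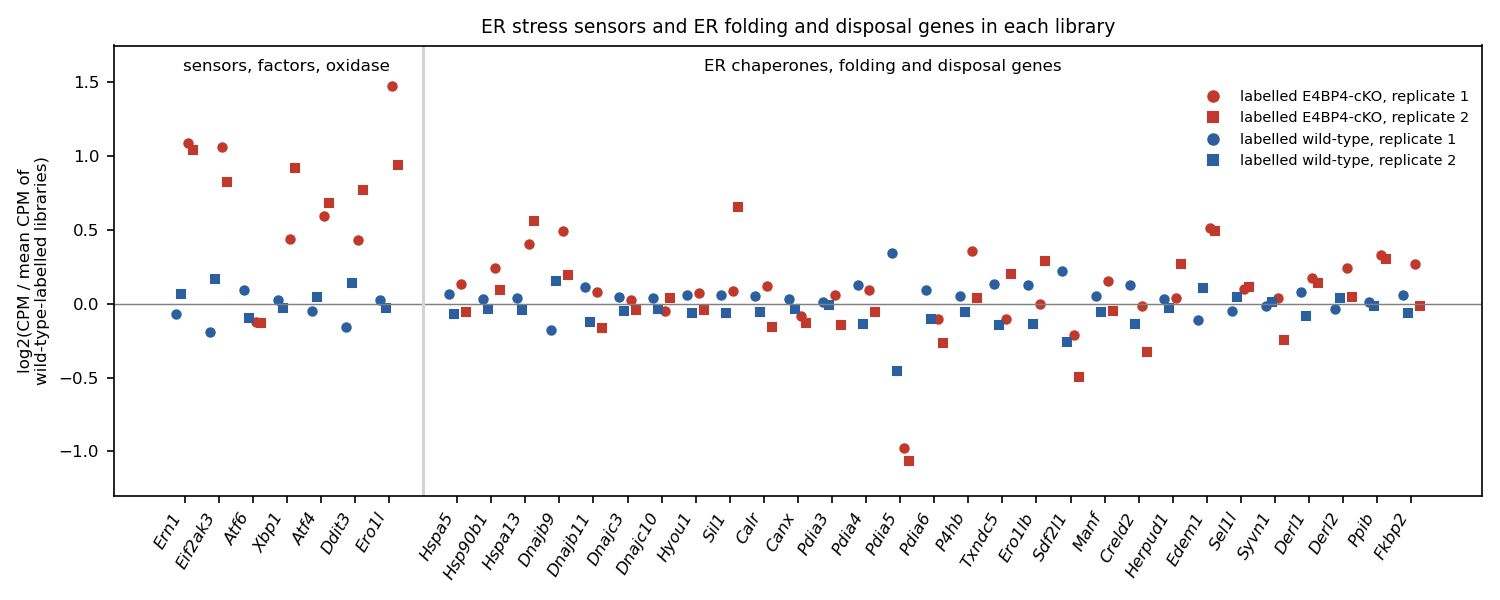
Level in each library as log2 of CPM over the mean CPM of the 2 wild-type-labelled libraries, for ER stress sensors, factors and the oxidase Ero1l (left) and for 7 ER chaperones and the other folding and disposal genes tested apart from Derl3 (right), with red for E4BP4-cKO and blue for wild-type labels, circles for replicate 1 and squares for replicate 2. Ern1, Eif2ak3, Atf4 and Ero1l lie well above the wild-type-labelled libraries in both red points, while the groups overlap for Hspa5, Dnajb11 and Dnajc3, and Pdia5 lies lowest on the right.

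Of the 8 tested members in another or an unstated place, none was called by edgeR, and 2 were higher at an unadjusted p under 0.05, beside 18.6% of all genes. DESeq2 called Dnajc6 higher. Dnajc6, the auxilin that strips clathrin from vesicles with Hspa8, measured 5.77 and 6.66 CPM under the E4BP4-cKO label and 2.33 and 0.824 CPM under the wild-type label (1.99, SE 0.51, adjusted p = 0.0574), the largest log2 fold change of the members tested. Hspb11, a part of the intraflagellar transport machinery, measured 10.5 and 12.8 against 6.99 and 7.06 CPM (0.73, SE 0.21, adjusted p = 0.0716). In both the groups were apart. Dnajc5, the cysteine-string protein of secretory vesicles, measured 207 and 175 against 203 and 209.6 CPM, with groups that overlapped (-0.11, adjusted p = 0.564). Dnajb13, an axonemal protein, stood at -0.28 (SE 0.22, adjusted p = 0.412).

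Ratios within a library set the ER and the cytosolic forms of each family side by side, free of the scaling between libraries. Per length, Hsp90b1 over Hsp90ab1 was 0.125 and 0.124 under the E4BP4-cKO label and 0.0890 and 0.0908 under the wild-type label. Hspa5 over Hspa8 was 0.350 and 0.292 against 0.282 and 0.265. In both families the ER form stood higher against its cytosolic relative in each E4BP4-cKO-labelled library than in each wild-type-labelled one. Within the cytosol, Hsp90aa1 over Hsp90ab1 was 0.198 and 0.166 against 0.213 and 0.208, lower under the E4BP4-cKO label with groups barely apart. The inducible pair Hspa1a and Hspa1b over Hspa8 went the opposite way, at 0.00943 and 0.00982 against 0.00753 and 0.00902. These ratios were not tested, and that of Hsp90aa1 and those over Hspa8 carry the shared stretches given above.

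**Figure D4:**
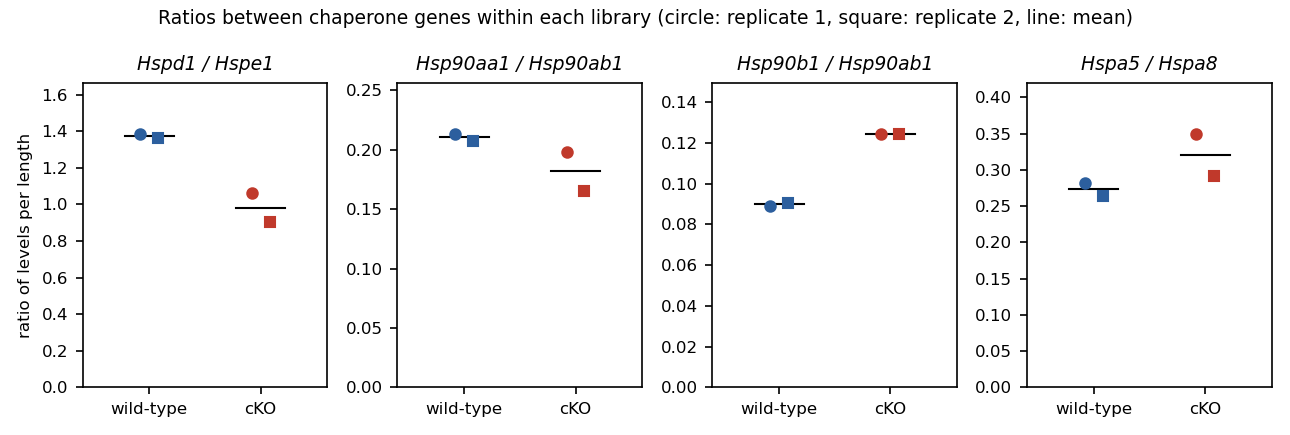
Ratio of the levels per length of 4 pairs of chaperone genes in each library, on axes that start at 0, by label (blue, wild-type; red, E4BP4-cKO), with circles for replicate 1, squares for replicate 2 and a line at the mean of 2 libraries. Hspd1 over Hspe1 and Hsp90aa1 over Hsp90ab1 sit lower in both E4BP4-cKO-labelled libraries, and Hsp90b1 over Hsp90ab1 and Hspa5 over Hspa8 sit higher.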

How the data were processed

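RNA from the 4 libraries was sequenced as random-primed cDNA from total RNA, per the labels' protocols. The deposited table holds raw read counts, as the authors made them with no normalisation, for 52636 Ensembl gene IDs. The tools CASAVA, HISAT2 and featureCounts and the mouse build mm10 are named, with no tool version, per the submitters' processing notes. Neither the annotation release nor the strand setting nor the handling of multi-mapped reads is given in the sources used here. Column names were matched to the sample titles, and groups follow the genotype in the labels.

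Counts were scaled with TMM factors of 0.962 to 1.04 and tested with edgeR 4.0.16 (filterByExpr, glmQLFit, glmQLFTest, two-sided) in R 4.3.3, over the 15503 genes kept of 28039 with a count. Benjamini-Hochberg adjustment ran over all genes tested. Calls are at an adjusted p under 0.05, and log2 fold changes are E4BP4-cKO over wild-type labels. The SE given with them was derived as the absolute log2 fold change over the square root of the F statistic of edgeR's test. DESeq2 1.42.0, limma-voom (limma 3.58.1), other scaling factors, no filter, a replicate block and leaving out each library were alternatives. The fit was also run on simulated counts, with larger changes than those of most chaperone genes called here. That run gives no measure of calls at smaller changes. Floors and p-values cover these libraries only, at 19057077 to 26579592 counts each. Values per length divide CPM by the gene length in the table. Shared sequence was counted as 50-base stretches of a gene's longest GENCODE M21 transcript that occur in other genes. All 82 members were found in that release. Promoter windows are those of RefSeq on GRCm38.p6.

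Members, compartments and companion lists were chosen with earlier results of these data known. Named genes were core members of each compartment listed by name, every member called, up to 4 members with the lowest p in each compartment, every called gene of a companion list up to 6 in each direction, and Nfil3. Other members are given in the text outside this rule, with their values known. Among them are Dnaja2, Dnaja4, Dnajb4, Dnajb6, Dnajc2, Dnajc7, Dnajc12, Hspa2, Hspa14, Hspb9 and Hspbp1. They are not part of the named genes counted below. No protein sequences were used here.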

Additional observations from a re-analysis of the deposited data

How the results depend on the processing

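Among 49 named genes, Nfil3 included, 453 of 539 values under alternatives kept their direction and their side of the threshold, 47 kept the direction and lost the call, 23 gained one and 16 changed sign. Most of the 49 genes were uncalled as reported and had no call to lose. The 453 values are therefore no measure of how stable the calls were. The changes of sign were all in uncalled genes near 0. With upper-quartile factors the log2 fold change was 0.0092 for Cct4 and 0.013 for Dnajc3, and with total library size it was -0.043 for Hspa5. Leaving out single libraries gave -0.064 to 0.025 for Cct2, -0.11 to 0.093 for Cct4, -0.18 to 0.094 for Cct7, -0.17 to 0.10 for Dnajb11, -0.053 to 0.043 for Dnajc3, -0.24 to 0.021 for Dnajc5, -0.15 to 0.057 for Hspa1b and -0.060 to 0.15 for Hspa5.

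Counts of calls with median-of-ratios factors were within 1.5 times those reported. Total library size moved the median of all genes by -0.085, and the medians became -0.12 for all members tested, -0.21 in the cytosol, 0.071 in the ER, -0.33 in the mitochondria, -0.20 for the chaperonin and -0.0062 elsewhere. With it 9 members were called lower, of them 7 cytosolic and 2 mitochondrial, with 6 co-chaperones and 4 mitochondrial import genes. With no filter on low counts, 7 members were called higher (4 cytosolic, 2 ER, 1 elsewhere) and 10 lower (7 cytosolic, 2 mitochondrial, 1 chaperonin), and the cytosolic and the remaining medians were -0.058 and -0.029. Without the filter, 7 ER folding and response genes were called higher and 2 lower, 6 co-chaperones lower, 1 import gene higher and 6 lower, and 1 prefoldin gene higher. DESeq2 called 5 members higher (1 cytosolic, 3 ER, 1 elsewhere) and 10 lower (7 cytosolic, 2 mitochondrial, 1 chaperonin), 7 ER folding and response genes higher, 6 co-chaperones lower, 1 import gene higher and 4 lower, and 1 prefoldin gene higher. Limma-voom called 2 members higher, 1 of them outside the named compartments, and 1 prefoldin gene lower, as upper-quartile factors also did. Over all genes, 1191 were called higher and 1013 lower as reported, 2680 and 2237 with no filter, and 1834 and 1676 by DESeq2. The cause of these shifts was not tested.

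With replicate number as a block (replicate block), 2 members were called higher, 1 of them cytosolic, 4 import genes lower, 1 prefoldin gene higher and 1 lower. Deviations of same-numbered libraries correlated at 0.058 over 2 pairs, and the labels do not say that a number marks a shared mouse or day. The libraries share only a number, and it changed no other count by more than 1.5 times.

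Leaving out each library in turn gave 0 to 1 member called higher and 0 to 3 lower. By compartment it gave 0 to 1 cytosolic member higher and 0 to 2 lower, 0 to 1 ER member higher, 0 to 1 mitochondrial member lower and 0 to 1 member elsewhere higher. Among the companion genes it gave 1 to 4 ER folding and response genes higher and 0 to 1 lower, 0 to 1 co-chaperone lower, 0 to 2 import genes lower and 0 to 1 prefoldin gene in each direction. The medians ran from -0.069 to -0.0015 for all members, -0.21 to -0.014 in the cytosol, 0.062 to 0.26 in the ER, -0.29 to -0.18 in the mitochondria, -0.18 to -0.076 for the chaperonin and -0.072 to 0.17 elsewhere. The leave-one-out fits have 1 library in a group, which is assumed to vary like the pair. The 7 members with at least 20% of 50-base stretches shared with other genes were left out in a check chosen after seeing the data. That left 63 tested, 1 higher and 3 lower, with a median of -0.032. The 2 libraries a group limit every p.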
